A study of Bos taurus with 33 samples.

Results

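The 9 genes described here, EZH2, EED, SUZ12, RNF2, BMI1, CBX2, CBX6, CBX7 and CBX8, encode Polycomb group proteins. They were picked by symbol as a family because CBX6 stood out in oocytes of spontaneous follicles, and their rows were joined between the tables by Ensembl identifier. All 9 were listed among the 16279 genes of the oocyte table and among the 16244 genes of the cumulus cell (CC) table, out of 17543 genes in either. RNA came from postpartum beef cows given gonadotropin releasing hormone (GnRH) and then prostaglandin F2 alpha. Cows that did not show estrus received a second GnRH injection and had a largest follicle of at most 11.7 mm (small) or at least 12.7 mm (large). Cows that showed estrus had their own gonadotropin surge and no second injection (spontaneous, follicles of 11.7 to 14 mm). Cumulus-oocyte complexes were aspirated about 23 h after that injection or after estrus according to the protocol, and about 20 h according to another label of the same samples. Each library held the denuded oocytes, or the CC, of 4 complexes, which gave 6 small, 6 large and 4 spontaneous oocyte pools and 6, 6 and 5 CC pools. A pool therefore gives a mean over 4 complexes, and spontaneous follicles differed from the others both in estrus and in the missing injection, which cannot be told apart. By the limits above they also differed from small follicles in diameter, which cannot be told apart from these either.

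Polycomb proteins keep developmental genes silent through 2 complexes that modify histones. In Polycomb repressive complex 2 (PRC2), EZH2 is the methyltransferase that marks histone H3 at lysine 27, SUZ12 is the scaffold and EED binds the finished mark and stimulates the enzyme. In PRC1, RNF2 (RING1B) is the ligase that attaches ubiquitin to histone 2A, BMI1 (PCGF4) is a partner that sets its activity, and CBX2, CBX6, CBX7 and CBX8 carry a chromodomain by which canonical PRC1 can bind methylated histone H3. In the mouse, growing oocytes use both complexes, and the PRC2 mark of the oocyte can be passed to the embryo.

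Expression was measured as reads per 1000000 reads on genes (CPM), from 7664375 to 17934916 reads on genes in the oocyte pools and 1911600 to 5772431 in the CC pools. For a gene with a count of 0 the value of 3 reads, up to 0.391 CPM among the oocyte libraries and up to 1.57 CPM among those of CC, remains possible, and such limits cover counting error only. All 10 oocyte markers, among them GDF9 and ZP2, were present in the oocyte pools at a summed 8829.7 to 13119 CPM, and summed to at most 6.76 CPM in CC pools. The 12 cumulus markers had sums between 804 and 4363 CPM in oocyte pools, and between 10671 and 33010 CPM in CC. HAS2 and STAR, which are in that list, were higher in oocytes (medians 186 and 388 CPM) than in CC (50.5 and 5.64 CPM), so the cumulus list does not mark CC alone, whereas FSHR had a median of 0 in oocytes. Small oocyte replicate 3 had the highest cumulus sum of all oocyte pools (4363 CPM) and large oocyte replicate 6 the second highest (4109 CPM).

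CBX6 (ENSBTAG00000046724), a chromodomain subunit of PRC1, was abundant in all 4 oocyte pools from spontaneous follicles and low in most of the other oocyte pools. The spontaneous oocyte pools held 75.4, 64.8, 10.2 and 13.4 CPM, from 134 to 1136 reads. The small oocyte pools held 0 to 10.2 CPM (median 0.367, n = 6) and the large oocyte pools 0 to 29.6 CPM (median 0.404, n = 6). In words, 2 spontaneous pools lay far above every other oocyte pool, the other 2 lay near small replicate 2 and below large replicate 6, and the remaining small and large pools had at most 3.1 CPM. The ranges thus overlapped in both comparisons with spontaneous pools.

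Group means of CBX6 were 41 ± 34 CPM in spontaneous (SD, n = 4), 5.35 ± 11.9 in large (n = 6) and 2.36 ± 4.02 in small oocyte pools (n = 6). On the log2(CPM + 1) scale, the mean of spontaneous pools was 3.81 above that of small pools and 3.68 above that of large pools. These values led to the choice of the genes, so they are given as a description, without a test. Over the alternatives tried, the first difference ranged from 3.36 (without spontaneous replicate 1) to 5.33 and the second from 2.91 (edgeR on recovered reads) to 5.26, the highest values being those with a pseudocount of 0.1 in place of 1. Between small and large oocyte pools the difference was 0.13 (95% confidence interval -1.59 to 1.86). The spontaneous pools stood out from these pools, so this difference is a description as well.

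The summed cumulus markers of the 4 spontaneous oocyte pools, 1034 to 2979 CPM, lay within the range of the small pools (1004 to 4363 CPM). The part of CC RNA in the CBX6 values of oocyte pools was not tested.

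**Figure D1:**
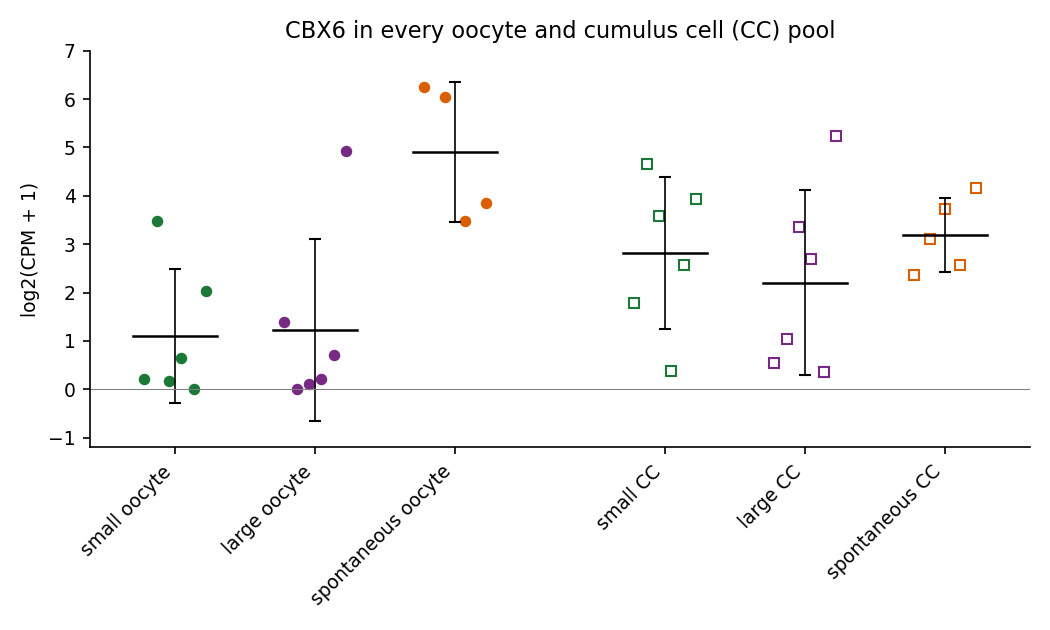
CBX6 in each oocyte pool (filled circles) and CC pool (open squares) as log2(CPM + 1), by follicle classification, with the mean and SD on that scale as black lines. The 4 spontaneous oocyte pools (10.2 to 75.4 CPM) sit above all small and large oocyte pools but small replicate 2 (10.2 CPM) and large replicate 6 (29.6 CPM), while the 3 groups of CC pools overlap.

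In CC, CBX6 had at least 1 read in every pool, and its 3 groups overlapped. The small CC pools held 0.304 to 24.3 CPM (median 7.95), the large CC pools 0.284 to 36.8 CPM (median 3.27), and the spontaneous CC pools 4.18, 7.61, 12.3, 4.9 and 17 CPM. The spontaneous pools fell inside the range of the other 2 groups. Means were 9.56 ± 8.95 in small, 8.88 ± 14.1 in large and 9.2 ± 5.4 CPM in spontaneous CC pools, and the log2 differences of spontaneous pools were 0.37 from small (95% interval -0.93 to 1.66, exact permutation p = 0.944 for the means) and 0.98 from large (-0.54 to 2.51, exact permutation p = 0.948). Ordered by mean, spontaneous oocytes came first, followed by small, spontaneous and large CC, large oocytes and small oocytes, and no 2 neighbours in this order were farther apart than the larger of their SDs. Whether the spontaneous difference was larger in oocytes than in CC was not tested.

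In CC, whose values did not enter the choice, CBX6 was among the most variable transcripts. Its coefficient of variation over the 17 CC pools was 106%, above that of 98.7% of the 9712 transcripts retained there (median 33.9%). The ranking took no account of abundance. CBX6 had a median of 5.46 CPM in CC, at most 3 reads in 4 pools, and its highest value, 36.8 CPM, in large replicate 6. A transcript was retained if 4 or more oocyte pools, or 5 or more CC pools, reached 5 CPM. CBX6 reached 5 CPM in 6 oocyte pools, of which all 4 spontaneous pools and 1 pool of each other group, so that it passed the filter through the group in which it was high.

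Of the 9 genes, 6 passed the filter in oocytes (EZH2, EED, SUZ12, RNF2, CBX6 and CBX8) and 6 in CC (EZH2, EED, SUZ12, RNF2, BMI1 and CBX6). EED passed narrowly in oocytes, with 5 CPM or more in 5 pools (4 small, 1 large), whereas BMI1 in oocytes and CBX7 in CC reached it in 1 pool each and were not tested there.

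EZH2 (ENSBTAG00000009426), the PRC2 methyltransferase, was found in every pool of both cell types. In oocytes it ranged from 60.2 to 156 CPM in small (median 130), 71.2 to 104 CPM in large (median 85.6) and held 82.9, 73.6, 109 and 125 CPM in spontaneous pools. The 3 groups overlapped, and 4 of the 6 small pools were above every large pool. In CC it ranged from 27.4 to 37.2 CPM in small pools (median 31.6) and from 13.9 to 32.7 CPM in large pools (median 21.9), and held 34.7, 27.9, 34.9, 28.1 and 27.1 CPM in spontaneous pools. Large CC replicate 2 (32.7 CPM) lay among the small and spontaneous pools, and the other 5 large CC pools, at up to 24.6 CPM, lay below all of them.

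The EZH2 level in CC was 0.56 lower in large than in small pools as a difference of log2(CPM + 1) (standard error 0.242, limma p = 0.031, adjusted p = 0.999; exact permutation p = 0.0173, two-sided). It was 0.51 higher in spontaneous than in large CC pools (standard error 0.233, limma p = 0.0424, adjusted p = 0.696; exact permutation p = 0.0346). Neither difference met the study's nominal threshold of 0.01 or the adjusted one. The limma p of the first rose above 0.05 without small CC replicate 4 or 6 or large CC replicate 5 or 6 (up to 0.0703) and fell to 0.00979 without large CC replicate 2, and that of the second ranged from 0.0104 to 0.141 over the alternatives. Theca markers summed to 235 to 1192 CPM in small, 553 to 890 CPM in large and 563 to 1327 CPM in spontaneous CC pools, and white blood cell markers to 30.1 to 195, 26.1 to 162 and 45.2 to 210 CPM. In bulk pools like these, fewer cells of a type and less RNA per cell cannot be told apart.

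EED (ENSBTAG00000007847), the PRC2 subunit that reads the mark, was low in oocytes. The small oocyte pools held 3.35 to 10.2 CPM (median 6.29), the large pools 1.04 to 7.77 CPM (median 1.74), and the spontaneous pools 0.93, 1.35, 4.7 and 4.74 CPM. Large replicate 3 (7.77 CPM) stood within the small range, and the 5 other large pools, at up to 2.51 CPM, lay below all small pools. EED was singled out here after its values were seen, and 4 of the 5 oocyte pools through which it passed the filter were small pools, so its differences from small pools are given without a test. The log2 difference was -1.22 from small to large oocyte pools, -1.52 without large replicate 3, and -1.08 from small to spontaneous oocyte pools. In CC, EED ranged from 16.2 to 36.4 CPM in small (median 20.3), from 11.7 to 61.3 CPM in large (median 20.1) and from 19.1 to 26.1 CPM in spontaneous pools. The large CC pools spread most, with a coefficient of variation of 70.3% against 12.1% in spontaneous CC pools, and this difference in spread was not tested.

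SUZ12 (ENSBTAG00000018752), the PRC2 scaffold, was present in all pools. Oocyte pools held 43 to 91.9 CPM in small (median 64.6), 52.7 to 141 CPM in large (median 75.2) and 67.3, 115, 62.4 and 42.3 CPM in spontaneous follicles, with overlap among all groups. In CC, small pools held 16.8 to 39 CPM (median 33.2) and large pools 25.6 to 49.4 CPM (median 34), and the spontaneous pools held 52, 39.2, 43.7, 43.6 and 47 CPM. Every spontaneous CC pool was above every small CC pool, although the closest 2 pools were at 39.2 and 39 CPM. Separate ranges were seen for 1.16% of the transcripts retained in CC, and the spontaneous and large CC pools overlapped.

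The mean of SUZ12 was 0.53 higher in spontaneous than in small CC pools as a difference of log2(CPM + 1) (standard error 0.223, limma p = 0.0292, adjusted p = 0.541; exact permutation p = 0.00433). The median of all retained CC transcripts itself moved by 0.16 in this comparison, and by 0.013 when median-of-ratios size factors replaced library totals. With those factors the SUZ12 difference was 0.37, and it was 0.36 in CPM computed without mitochondrially encoded genes, which took 12.6 to 44% of the reads of small and 14.3 to 22.1% of those of spontaneous CC pools. Without small CC replicate 6, the lowest pool, it was 0.36 as well, and on the recovered reads it was 0.33 by edgeR and by DESeq2. In each of these 5 settings, with the replicate number as a block and without spontaneous CC replicate 1 or 5, the p was above 0.05.

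RNF2 (ENSBTAG00000000023), the ubiquitin ligase of PRC1, was the steadiest of the 9. It ranged from 154 to 253 CPM in small (median 202), from 149 to 210 CPM in large (median 178) and held 234, 211, 212 and 192 CPM in spontaneous oocyte pools. Its coefficient of variation over the 16 oocyte pools was 14.4%, and 3.03% of the retained transcripts had a lower one. In the 17 CC pools it was 19.5%, with 9.08% of transcripts lower. The CC pools held 43.4 to 68.4 CPM in small (median 62), 32.4 to 64.4 CPM in large (median 53.1) and 49.9 to 78.2 CPM in spontaneous follicles (median 54.8). All groups overlapped, and the log2 differences of RNF2 lay between -0.2 and 0.25 in the 6 comparisons.

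BMI1 (ENSBTAG00000015584), the partner of RNF2 in canonical PRC1, was scarcely detected in oocytes and present in all CC pools. In oocytes 4 of 16 pools had no read. The small oocyte pools held 0 to 4.96 CPM (median 0.741), the large pools 0 to 4.23 CPM (median 0.341), and the spontaneous pools 0.398, 2.77, 12 and 0 CPM. The highest small, large and spontaneous pools for BMI1 were small replicate 3, large replicate 6 and spontaneous replicate 3, and each had the highest cumulus marker sum of its group (4363, 4109 and 2979 CPM). Over the 16 oocyte pools BMI1 and that sum, both on a log2 scale, had a Pearson r of 0.60 (permutation p = 0.0144, adjusted over 8 relations 0.116) and a Spearman rho of 0.52 (permutation p = 0.0428, adjusted 0.342). Without the 2 pools farthest from the median sum r was 0.42, and over deviations from the class means it was 0.61. The part of CC RNA in the BMI1 values of oocyte pools was not tested. In CC, BMI1 ranged from 17.3 to 32 CPM in small (median 22), from 13.3 to 27.9 CPM in large (median 22.2) and from 22.4 to 34.1 CPM in spontaneous pools (median 26.9), and the groups overlapped.

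Of the other chromodomain subunits, CBX8 (ENSBTAG00000009107) was found in every oocyte pool. The small oocyte pools held 1.14 to 40.4 CPM (median 7.74), the large pools 3.13 to 13.9 CPM (median 8.8), and the spontaneous pools 16.5, 9.92, 7.89 and 10.9 CPM. Small replicates 1 and 5 (26.8 and 40.4 CPM) were above all other oocyte pools. In CC it did not pass the filter, with at most 4.4 CPM in a pool and no read in 2 of 17.

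CBX2 (ENSBTAG00000038306) and CBX7 (ENSBTAG00000007228) were at or near the limit of detection in both cell types. CBX2 had no read in 11 of 16 oocyte pools and in 11 of 17 CC pools, and reached at most 2.64 CPM (large oocyte replicate 3) and 0.923 CPM (small CC replicate 2). CBX7 had no read in 15 of 16 oocyte pools, and spontaneous replicate 4 had 4 reads (0.223 CPM). In CC it had no read in 7 of 17 pools and reached 5.89 CPM in small replicate 6, the pool with the second highest value being at 1.04 CPM. At this depth differences between follicle classifications were not detectable for either gene.

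**Figure D2:**
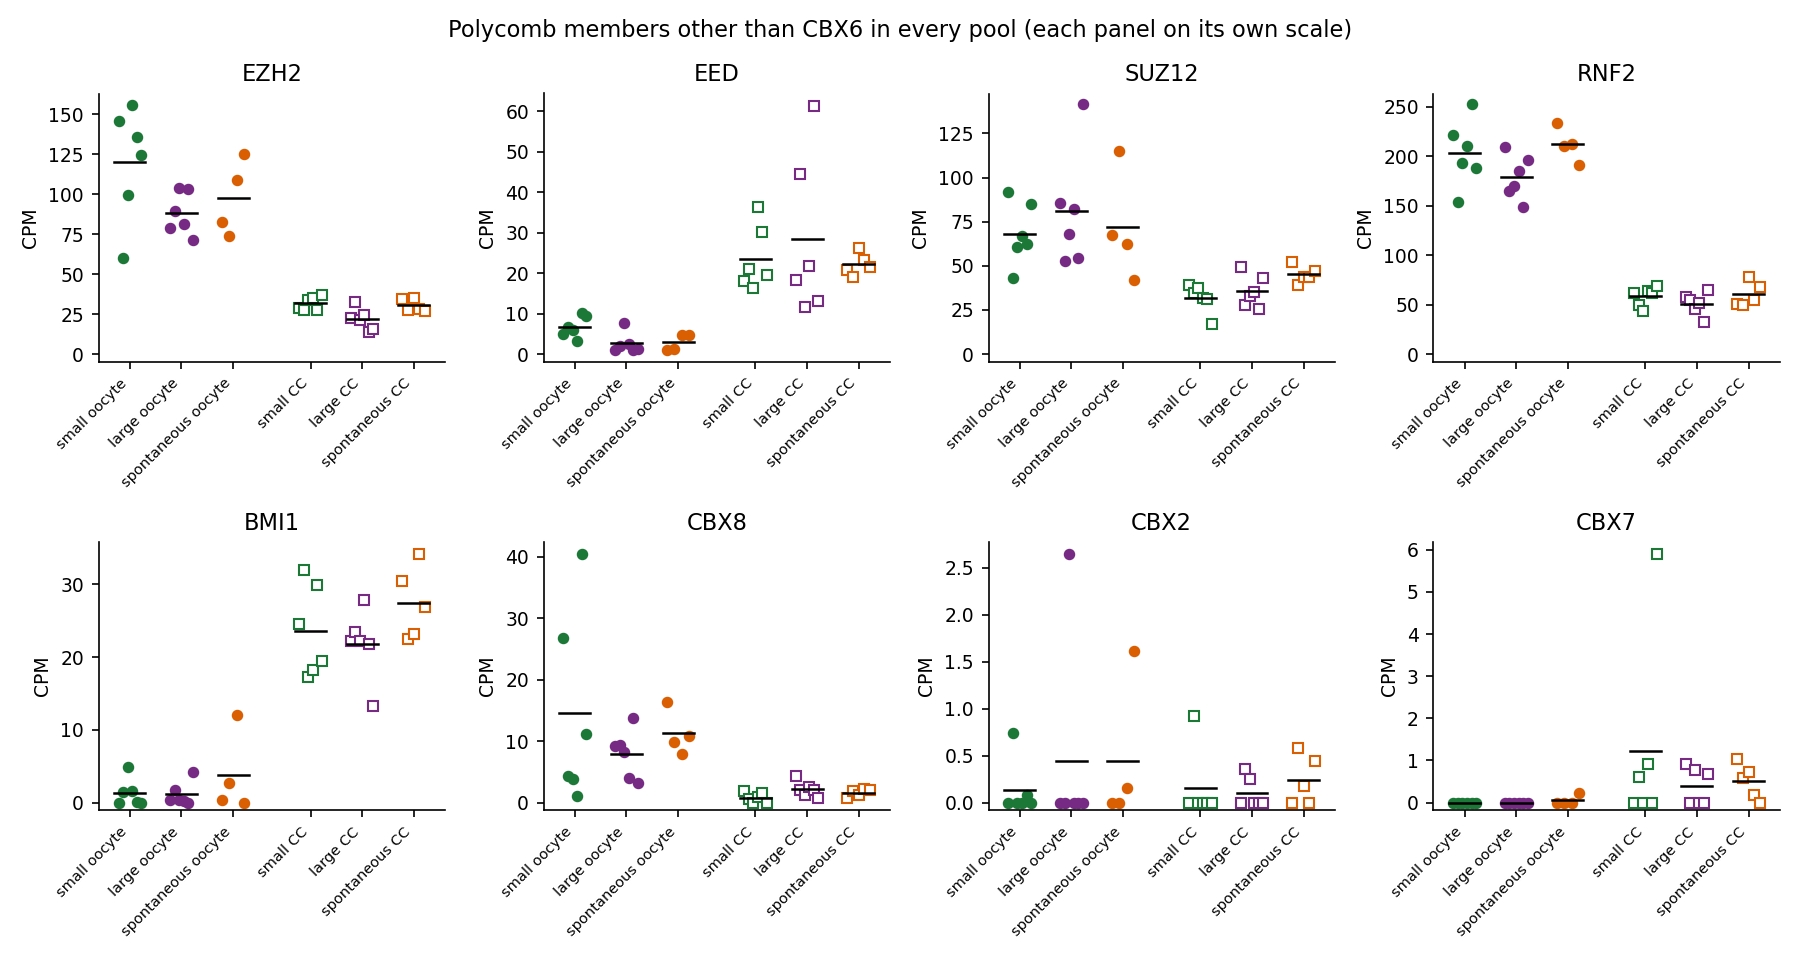
CPM of the other 8 genes in each oocyte pool (filled circles) and CC pool (open squares) by follicle classification, with group means as black lines and a scale of its own in each panel. EZH2 and RNF2 are higher in all oocyte pools than in any CC pool, EED and BMI1 are higher in all CC pools, and CBX2 and CBX7 are near 0 in most pools.

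Over the 6 follicle comparisons, 34 tests of retained members had a p, 3 had a limma p of 0.05 or less (the differences of EZH2 and SUZ12 in CC given above), 0 met the nominal threshold of 0.01, and the smallest adjusted p was 0.541. Exact permutation tests of the means gave p under 0.05 in 6 of the same 34. No share of all retained transcripts at that permutation p is given, so the 6 are not read as an excess. They include RNF2 from large to spontaneous oocyte pools (exact permutation p = 0.0476, limma p = 0.176). Both comparisons of EED with small oocyte pools are among the 6. They are not read as tests, because EED was singled out after its values were seen and passed the filter mainly through small pools. In oocytes, 0 of 6 members met the threshold from small to large, where 0.655% of all retained transcripts did. From small to spontaneous pools it was 0 of 5, against 0.774%, and from large to spontaneous pools 0 of 5, against 0.943%, with CBX6 left out of both counts. CBX6 is still among the 6 from small to large, where its difference is a description. In CC, 0 of 6 met the threshold from small to large (0.813% of all retained transcripts), 0 of 6 between small and spontaneous pools (2.38%) and 0 of 6 between large and spontaneous pools (1.66%). On the recovered reads, edgeR's quasi-likelihood test and DESeq2 also put 0 members past the threshold in each comparison. At a limma p of 0.05 or less there were 0 members in each oocyte comparison, where 4.11, 4.51 and 4.87% of all transcripts passed, and 1 member in each CC comparison, where 4, 8.55 and 7.07% did. Groups did not overlap for 0 members in each oocyte comparison (0.258, 0.903 and 0.913% of all retained transcripts), and in CC for 0 members from small to large (0.247%), 1, SUZ12, between small and spontaneous pools (1.16%) and 0 between large and spontaneous pools (0.865%).

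The median log2 difference of the tested members, beside that of all retained transcripts, was -0.2 against 0.046 from small to large, 0.021 against 0.048 for spontaneous minus small and 0.15 against 0.0078 for spontaneous minus large oocyte pools. In CC the same medians were -0.15 against 0.045, 0.14 against 0.16 and 0.35 against 0.11.

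**Figure D3:**
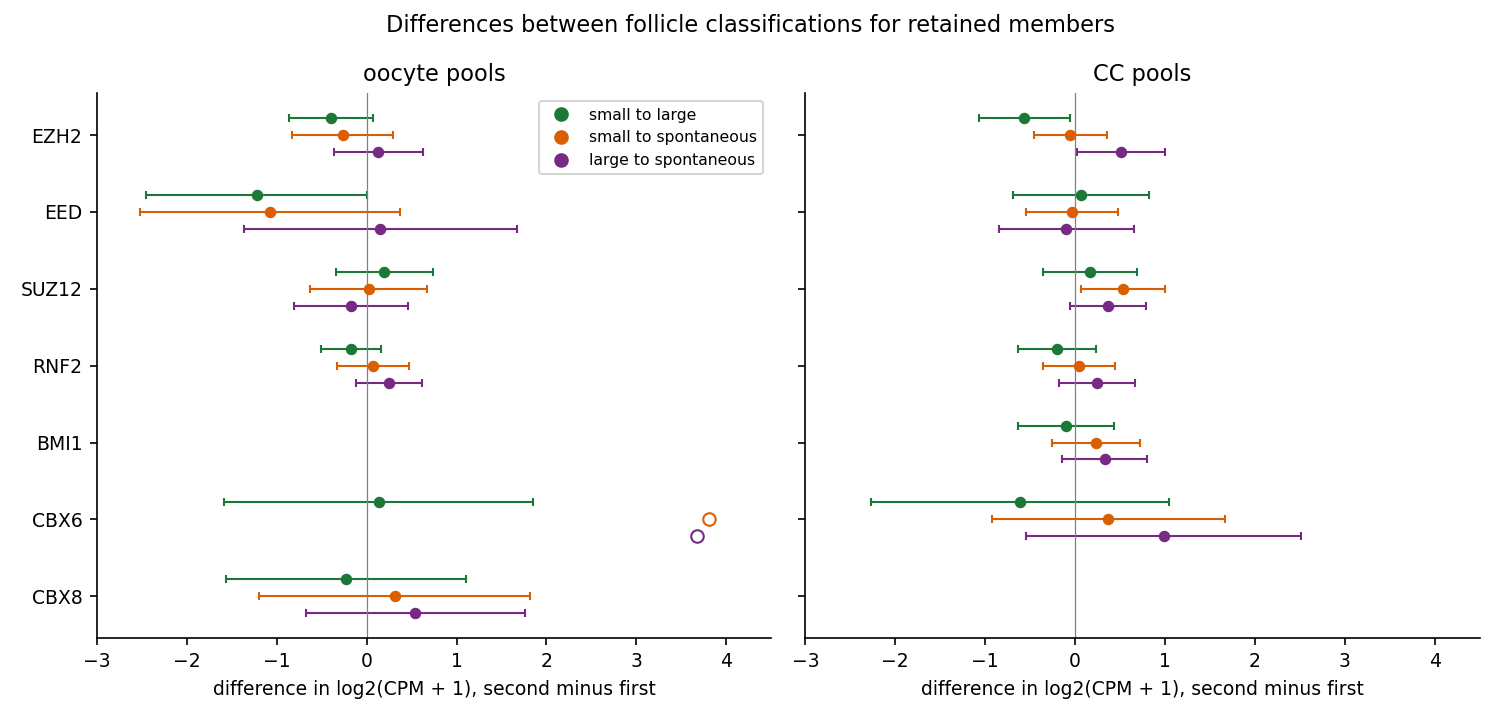
Difference in mean log2(CPM + 1) between follicle classifications (the second named minus the first) for the members retained in oocytes (left) and CC (right), with limma's 95% confidence intervals as bars. Open circles are CBX6 in comparisons with spontaneous oocyte pools (3.81 and 3.68), shown without an interval because they led to the choice of the genes, and 3 of the 34 intervals, those of EZH2 and SUZ12 in CC, leave out 0.

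Several members had separate ranges in oocytes and CC. The tables were scaled separately, so levels of the same gene are set side by side without a test, and the 16 oocyte pools are compared with the 17 CC pools by their ranges. Among PRC2 subunits EZH2 averaged 103 ± 28.4 CPM in oocytes and 27.9 ± 6.7 CPM in CC, with all oocyte pools above all CC pools, a ratio of 3.68. SUZ12 averaged 73.8 ± 26.2 and 37.1 ± 9.09 CPM, and its ranges overlapped. EED went the other way, at 4.25 ± 3.05 CPM in oocytes and 24.9 ± 12.4 CPM in CC, with all CC pools above all oocyte pools and a ratio of 5.85.

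In PRC1, RNF2 averaged 197 ± 28.2 CPM in oocytes and 56.4 ± 11 CPM in CC, all oocyte pools being above, a ratio of 3.48. Its partner BMI1 averaged 1.87 ± 3.11 CPM in oocytes and 24.1 ± 5.57 CPM in CC, where all pools were above those of oocytes, a ratio of 12.9. CBX8 averaged 11.3 ± 9.93 CPM in oocytes and 1.54 ± 1.06 CPM in CC, a ratio of 7.37, with overlapping ranges. Of the 7 members retained in either cell type, 2 were above in all oocyte pools, 2 in all CC pools and 3 overlapped, whereas ranges were separate for 36.3% of the 11431 transcripts with a row in both tables and retained in either (22.9% above in oocytes and 13.4% above in CC). When mitochondrially encoded genes were left out of the CPM, the log2 difference between oocytes and CC fell from 1.83 to 1.51 for EZH2 and from 1.8 to 1.47 for RNF2, and grew from -2.42 to -2.78 for EED.

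The other Polycomb genes on a list of 52 were examined in the same way, and 46 had a row in both tables and were retained in either. All oocyte pools were above all CC pools for 19 of them (41.3%) and all CC pools above for 3 (6.52%), with 24 overlapping. Over all 11431 transcripts the shares were 22.9% and 13.4%. The 19 included RBBP7, a histone-binding PRC2 subunit (906 against 88.1 CPM, ratio 10.3), and MTF2, which guides PRC2 to DNA (399.5 against 70.4 CPM, ratio 5.67). Subunits of variant PRC1, which works without CBX proteins, were among them: PCGF6 (29.6 against 0.997 CPM, ratio 29.7), RYBP (61.1 against 6.88 CPM, ratio 8.88), YAF2 (70 against 11 CPM, ratio 6.39) and BCOR (211 against 23.3 CPM, ratio 9.05). These are examples and do not set variant PRC1 apart. Of the 6 PRC1 core genes on this list, PCGF6 was the only 1 above in all oocyte pools, with 4 overlapping and 1 above in all CC pools. All oocyte pools were above for 7 of 13 variant PRC1 partners, with 5 overlapping and 1 above in all CC pools. The same held for 4 of 6 PHC and SCM proteins of canonical PRC1, with 2 overlapping. SCML2, a germ line Polycomb protein and 1 of these 4, was at 117 against 5.17 CPM (ratio 22.6).

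The 3 genes higher in all CC pools were RING1, the paralog of RNF2 (20.9 CPM in CC against 1.87 CPM in oocytes, ratio 11.1), E2F6, a DNA-binding partner of variant PRC1 (29.1 against 3.16 CPM, ratio 9.21), and L3MBTL3 (859.8 against 68.5 CPM, ratio 12.5). RNF2 was thus found in all pools of both cell types, while RING1 had a median of 0.727 CPM in oocytes and 21.4 CPM in CC. EZH1, the paralog of EZH2, ranged from 0.0861 to 29.7 CPM in oocytes and from 11.1 to 32.3 CPM in CC. KDM6A, a demethylase that removes the PRC2 mark, was higher in all CC pools (138 against 9.01 CPM, ratio 15.3), and the ranges of its paralog KDM6B overlapped.

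**Figure D4:**
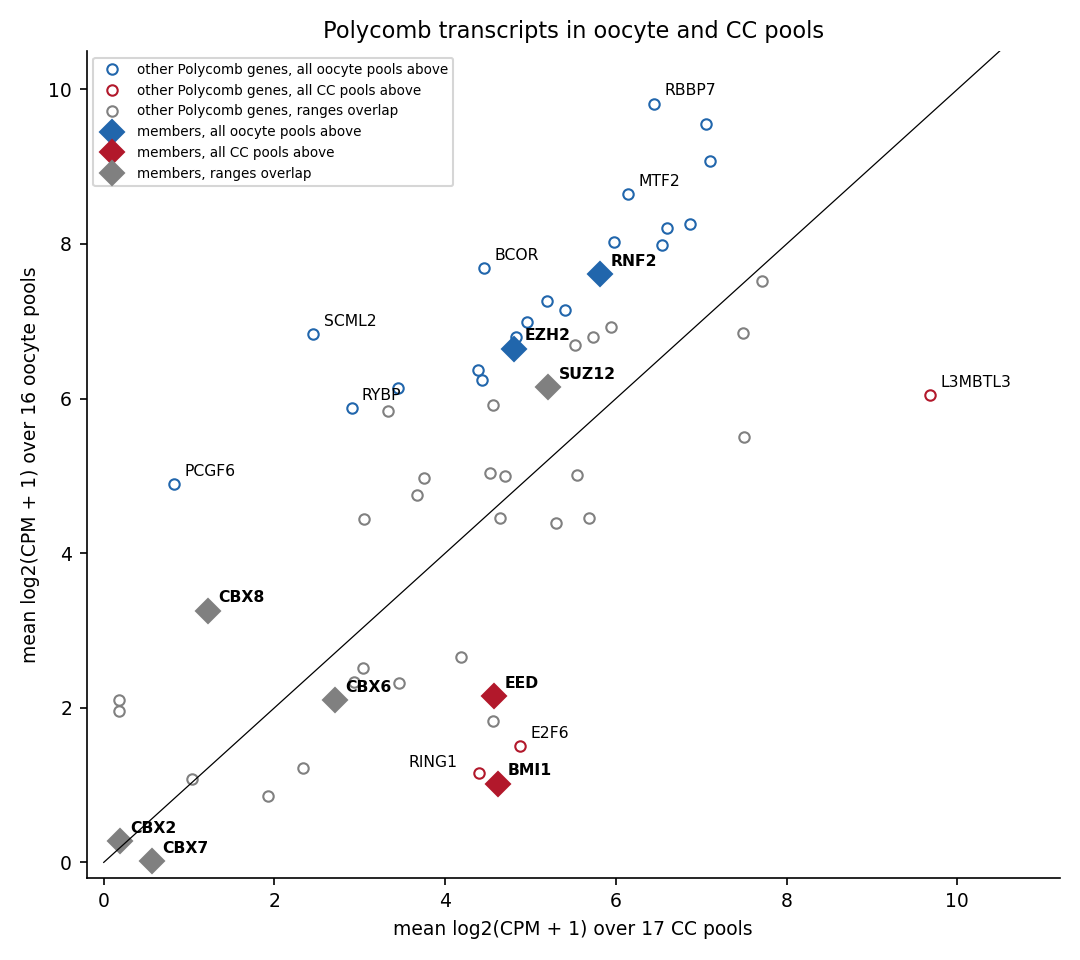
Mean log2(CPM + 1) over 17 CC pools (horizontal) and 16 oocyte pools (vertical) for the 9 members (filled diamonds) and the other Polycomb genes (open circles). All listed genes with a row for both cell types are drawn, whether retained or not. Colours show whether the ranges of the pools are separate, and the line marks equal values. The ranges are separate, with oocytes higher, for EZH2, RNF2 and 19 other genes, and with CC higher for EED, BMI1, RING1, E2F6 and L3MBTL3.

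Between follicle classifications, 44 of the other Polycomb genes were tested in each cell type, and 1 met the threshold in 1 of 6 comparisons. It was LCOR, from large to spontaneous oocyte pools, where 0.943% of all retained transcripts met it. A single gene of 44 is not read as a departure from that share. LCOR, which encodes a cofactor that can also bind PRC2, held 30.4 to 75.9 CPM in large oocyte pools (median 45.1) and 63.6 to 115 CPM in the 4 spontaneous pools, with overlap. Its log2 difference was 0.96 (standard error 0.297, limma p = 0.00328, adjusted p = 0.925; exact permutation p = 0.019), and it missed the threshold without spontaneous replicate 1 (0.89) or 4 (0.84). The 2 demethylases and the 2 retained HP1 chromobox genes, whose chromodomains read another histone mark, did not pass the threshold in any comparison.

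HOX genes and CDKN2A and CDKN2B are classic Polycomb targets, and 32 of the 41 listed were in the oocyte table and 27 in the CC table, of which 11 and 4 were retained. HOXB3 was the only one past the threshold, in small against spontaneous oocyte pools, and is named after its values were seen. In that comparison 0.774% of all retained transcripts passed, and a single gene of the 11 is not read as a departure from that share. It held 8.26 to 22.7 CPM in small pools (median 18) and 1.79, 6.41, 2.88 and 3.79 CPM in spontaneous pools, without overlap, as for 0.903% of all retained oocyte transcripts. The log2 difference was -1.95 (standard error 0.619, limma p = 0.00387, adjusted p = 0.907; exact permutation p = 0.00952), and large oocyte pools ranged from 0.592 to 25.3 CPM. It missed the threshold without small replicate 5 (-1.85) or spontaneous replicate 1 (-1.73), and with the replicate number as a block (-1.73).

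The 5 transcripts whose log2(CPM + 1) was most like that of CBX6 over the 16 oocyte pools were IFRD2, LSM12, TOE1, PTN and RAD17. Their Pearson correlations with CBX6 were 0.82, 0.79, 0.79, 0.75 and 0.73, the highest among the retained transcripts with a symbol, and over deviations from the class means they were 0.72, 0.57, 0.77, 0.54 and 0.61. These pools include the spontaneous ones that led to the choice of CBX6, so the correlations are a description. In RefSeq genes of the assembly ARS-UCD2.0, which is not the build of these files, CBX6 lies next to NPTXR and APOBEC3Z1. NPTXR stayed at or under 3.19 CPM in all oocyte pools and at or under 0.112 CPM in the 4 spontaneous ones, where CBX6 was at its highest. CBX2 and CBX8 are neighbours in that assembly, and of these CBX8 was retained in oocytes and neither in CC.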

How the data were processed

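RNA of oocyte and CC pools was amplified and sequenced by the authors, who trimmed the reads with fqtrim, aligned them to UMD3.1 with Hisat2 and assigned them to Ensembl genes by featureCounts. Values were deposited as CPM, in a table for each cell type, and 0 columns were left unmatched to a sample. Whole reads were recovered from 100% of the values (tolerance 0.01 read). Transcripts with at least 5 CPM in 4 oocyte or 5 CC pools were tested on log2(CPM + 1) by limma 3.58.1 with a trend, 2 classifications at a time, two-sided, without covariates, with Benjamini-Hochberg adjustment over all retained transcripts. A call needed a nominal p of 0.01 or less, and in comparisons with small oocyte pools also without small replicate 3, as in the study. Exact permutation tests compared mean CPM. The script was tested on simulated data. Alternatives included edgeR 4.0.16 and DESeq2 1.42.0 (R 4.3.3) on recovered reads.

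The members and lists were chosen with earlier results of these data known. All 9 members are named by role, with tests printed at a limma p of 0.05 or less and the others as ranges. Exceptions are EED and the CBX6 comparisons in CC and from small to large oocyte pools. Of the other Polycomb, demethylase and HP1 genes, those past the threshold in a comparison are named, together with examples of separate or shared ranges between cell types that were chosen after their values were seen. The transcripts most like CBX6 and its neighbours are named as well. The labels do not say which cows entered which pool, so p-values measure only the spread between pools. Pools of the same group differed beyond sampling noise. Reads shared with near-identical gene copies could not be checked. The values of 1 gene are not reported here.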

Additional observations from a re-analysis of the deposited data

Results flagged for a closer look

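Within groups of 4 to 6 pools, each member's highest and lowest pool was compared with the rest of its group by Dixon's test at the 95% level. Of 49 sets of values examined 12 had a pool that stood apart. Chance gives about 1 in 20 for normally distributed values that are not mostly 0. The test used CPM and not log2(CPM + 1), and whether CPM has that distribution was not checked, so the 12 sets are not read as an excess. The rate also does not apply to the 5 sets of CBX2 and CBX7, in which most pools had few or no reads. For CBX6 in small and in large oocytes, and BMI1 in small oocytes, 3 of 6 pools had at most 3 reads. CBX6 had 3 of the 12 sets, in small oocyte replicate 2 (10.2 CPM, the others 0 to 3.1), large oocyte replicate 6 (29.6 CPM, the others 0 to 1.63) and large CC replicate 6 (36.8 CPM, the others 0.284 to 9.17). Its 2 oocyte sets are a description, because the spontaneous pools stood out from them. Among PRC2 genes, EED was high in large oocyte replicate 3 (7.77 CPM, the others 1.04 to 2.51), and SUZ12 was high in large oocyte replicate 6 (141 CPM, the others 52.7 to 85.8) and low in small CC replicate 6 (16.8 CPM, the others 31.4 to 39). BMI1 was high in small oocyte replicate 3 (4.96 CPM, the others 0 to 1.64). CBX2, with 0 reads in most pools, was high in small oocyte replicate 2 (0.739 CPM), large oocyte replicate 3 (2.64 CPM) and spontaneous oocyte replicate 4 (1.62 CPM). CBX7 was high in spontaneous oocyte replicate 4 (0.223 CPM) and small CC replicate 6 (5.89 CPM, the others 0 to 0.911).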

How the results depend on the processing

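Numbers of transcripts past the nominal threshold of 0.01 depended on the processing. Members and other Polycomb genes each numbered 0 or 1 throughout the 6 comparisons, so a change between 0 and 1 is the whole of such a count. The exception was CC, small to large, without a filter, with 2 other Polycomb genes (PCGF6 and SFMBT2). Over all transcripts, DESeq2 gave 113, 121 and 181 in oocytes (66, 78 and 95 by limma, for small to large, small to spontaneous and large to spontaneous). In CC, 1 fit of all 3 classifications gave 137 from small to large (79), and from small to spontaneous (231) median-of-ratios size factors gave 126, CPM without mitochondrially encoded genes 120 and edgeR 128. Other Polycomb genes numbered 1 in place of 0 from small to spontaneous CC without a filter (PCGF6) and by DESeq2 (ASXL1), and 1 in place of 0 from large to spontaneous CC without a filter or at a mean of at least 1 CPM (SFMBT2), after either rescaling, by edgeR and by DESeq2 (ASXL2) and with the replicate block (PCGF3). Leaving out each pool in turn, or the requirement on small replicate 3, gave 0 to 1 members from small to large in oocytes (1, EZH2, without small replicate 2) and in CC (1, EZH2, without large replicate 2), and 0 to 1 other Polycomb genes in each oocyte comparison (0 from large to spontaneous without spontaneous replicate 4) and from large to spontaneous CC. All transcripts then numbered 47 to 93, 49 to 130 and 75 to 145 in oocytes, the extremes of the second being without spontaneous replicate 3 and small replicate 3 and the highest of the third without spontaneous replicate 2. In CC they numbered 52 to 113 (lowest without small replicate 5), 141 to 313 (lowest without spontaneous replicate 5) and 88 to 232 (lowest without spontaneous replicate 4, and 99 without spontaneous replicate 5). Pools of the same number did not deviate together (correlations -0.19 to 0.22), so the numbers do not pair them; a replicate block gave 43 transcripts from small to spontaneous in oocytes (78 without it), a SUZ12 difference of 0.36 (limma p = 0.107), an EZH2 difference of 0.43 (large to spontaneous CC, limma p = 0.0995) and a HOXB3 difference of -1.73 (limma p = 0.0323). The differences between follicle classifications that were followed over the alternatives kept their sign. In CC these were the differences of EZH2 and SUZ12 with printed tests. In oocytes they were those of LCOR, HOXB3, EED from small to large, and CBX6 in comparisons with spontaneous pools. Other named differences, such as those of CBX6 from small to large oocyte pools and in CC, were not followed. Their direction may depend on single pools. The difference between oocytes and CC of CBX2, which was near the limit of detection, went from 0.088 to -0.018 without large oocyte replicate 3. The causes of these changes were not tested. The CC pools hold fewer reads, and CBX2, CBX7 and CBX8 did not pass the filter there.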

Other observations

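Oocyte and CC pools of the small and large classifications with the same number were set side by side for the 8 members other than CBX7, a comparison chosen after seeing the data. Over these 12 pairs, CBX6 in the oocytes and in the CC of the same number had a Pearson r of 0.62 and a Spearman rho of 0.33. The spontaneous pools stood out from these same oocyte pools when CBX6 was chosen, so both values are a description, without a test. Large replicate 6 (29.6 CPM in oocytes, 36.8 CPM in CC) and small replicate 2 (10.2 and 24.3 CPM) were the highest of their group in both cell types, and without these 2 pairs r was 0.0095, so the relation rests on them. RNF2 gave an r of 0.67 (permutation p = 0.0162, adjusted over 8 relations 0.103) and a rho of 0.62 (permutation p = 0.0348, adjusted 0.181). Its r was 0.51 without the 2 farthest pairs. Within the small pairs and within the large pairs r was 0.65 and 0.64 for CBX6 and 0.45 and 0.83 for RNF2 (n = 6 each). The spontaneous pools were left out because an oocyte library of that group was not sequenced, so their numbers need not mark the same complexes.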
